A study of Mus musculus with 44 samples.

Results

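The flanks of the Slc25a37 promoter are the stretches of mouse chromosome 14 that lie from about 100 kb to 1 Mb on either side of it. Members were the restriction fragments whose midpoint lies from 68903000 to below 69800000 (the lower flank, towards smaller coordinates) or above 70005000 to 70903000 (the upper flank), in mm9 coordinates. The rule uses position alone. It took 3277 of the 308806 fragments listed in the fixation table, 1356 in the lower and 1921 in the upper flank, which together held 18619 of 520496 interactions. In the low-input table it took 2718 of 90020 fragments, of which 1065 had no interaction in any library, and these held 4649 of 87731 interactions. Distances are measured from 69903000, the middle of the outer bounds, which falls inside the unlisted stretch 69902161 to 69904393 around the captured promoter.

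Capture-C joins DNA ends that lay close together in cross-linked chromatin, enriches the ligation products that contain a chosen promoter (the viewpoint), and reads off the fragments joined to it. The number of such interactions normally falls with linear distance, because nearby chromatin collides most often, so a region that exceeds this decay contacts the viewpoint more than its distance alone accounts for. Contacts are usually frequent within a topological domain and fall at its boundary. Slc25a37 encodes mitoferrin-1, which carries iron into the mitochondria of developing red cells for haem synthesis. No annotation of the tables' build was used here, so no gene was assigned to a window.

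All libraries came from Ter-119+ erythroid cells taken from the spleen. The donors were female C57BL/6 mice that had received phenylhydrazine, which destroys red cells and fills the spleen with erythroid precursors. In the fixation series, aliquots of these cells were left unfixed (0%) or fixed with 0.5%, 1%, 2%, 3%, 4% or 5% formaldehyde, with 2 technical duplicates each (14 libraries), and were processed by NG Capture-C. In the low-input series, 200, 100 or 50 ng of a 3C library from cells fixed with 2% formaldehyde was processed by LI-Capture-C, which shears by sonication, or Tag-Capture-C, which cuts with a transposase, with 3 libraries per protocol and input (18 libraries). The study calls the low-input triplicates aliquots of 3C library in its text and biological replicates in a table note, and the labels tie no library to an animal. The spread between libraries may thus be technical, and p-values measure only that spread.

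The fixation libraries held 18397 to 61802 unique interactions and the low-input libraries 1900 to 10761. The 6 libraries of 3% to 5% held 18397 to 27725 and the 8 libraries of 0% to 2% held 34836 to 61802. The descriptions in the labels also name the libraries of these sets in different forms, though the titles do not, so values are given within each set too. PCR duplicates had been taken out before deposit by the ends of the reads, and intervals cover counting error only.

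The flanks were almost empty without fixation. The unfixed duplicates held 58 and 46 flank interactions, or 102 (95% Wilson interval 78.6 to 131) and 96.3 (72.2 to 128) per 100000 unique interactions genome-wide. At 0.5% the duplicates held 3544 and 2747 per 100000, at 1% 4063 and 5143, and at 2% 5658 and 4782. At 3% they held 4490 and 4552, at 4% 4332 and 4702, and at 5% 4717 and 4140. Every fixed library thus stood above both unfixed libraries. Among the fixed libraries, both at 0.5% lay below all others.

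Relative to the interactions on chromosome 14, the 0.5% libraries stood among the highest instead. The flanks held 2.33% and 2.07% of chromosome 14 interactions in the unfixed duplicates, 11.1% and 10.3% at 0.5%, 10.4% and 8.98% at 1%, and 9.12% and 7.20% at 2%. They held 6.35% and 6.32% at 3%, 6.00% and 6.40% at 4%, and 6.32% and 5.53% at 5%. No library of 3% to 5% reached the level of any library of 0.5% to 2%. Over the same range, the share of all interactions that lay on chromosome 14 was 29.3% ± 3.66 (SD, n = 2) at 0.5% and 74.7% ± 0.173 at 5%, and the share of chromosome 14 interactions within about 100 kb of the promoter was 33.6% ± 0.414 and 66.8% ± 0.925. The part of these changes in the share of the flanks was not tested.

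The trend with formaldehyde was tested as a slope over the means of the 7 concentrations with an exact two-sided permutation test of their order. Per 100000 interactions genome-wide, the slope of the flanks was 556 per percent of formaldehyde, which did not pass (exact p = 0.139; adjusted over 20 tests 0.199). Without the unfixed libraries the slope was 138 (exact p = 0.550). As a share of chromosome 14 the slope was -199 per 100000 over all concentrations (exact p = 0.777). From 0.5% to 5%, a setting chosen after seeing the data, it was -1094 per 100000 (exact p = 0.00556, outside the 20 adjusted tests). That range spans the 2 sets of libraries that differ in depth. Within 0.5% to 2% the slope on this scale was -1664 (exact p = 0.167) and within 3% to 5% it was -204 (exact p = 0.333). With 3 concentrations neither set alone can pass.

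**Figure D1:**
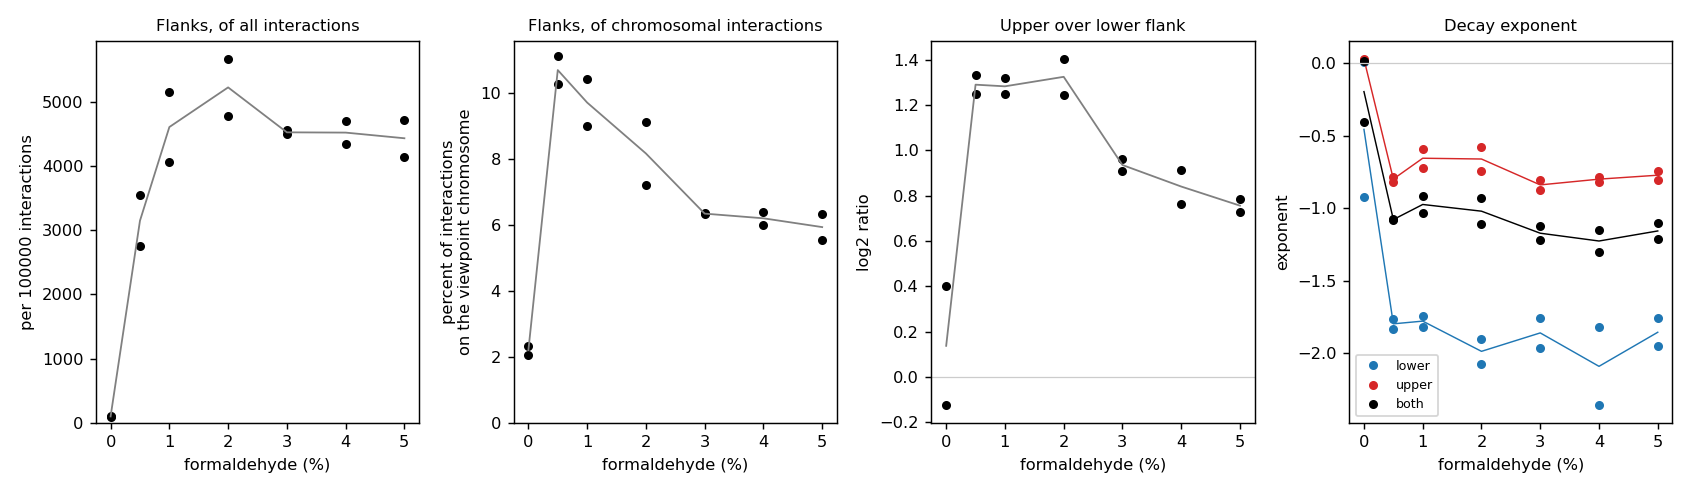
The 4 panels plot, against formaldehyde in percent, the flank interactions per 100000 of all interactions, the same as percent of interactions on chromosome 14, the log2 ratio of upper to lower flank interactions, and the decay exponent of each flank and of both. Points are libraries and lines join the means of the 2 duplicates. The percent of chromosome 14 is highest at 0.5% (11.1% and 10.3%) and the lower flank has the steepest decay at every fixed concentration.

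The upper flank held more interactions than the lower one in every fixed library. In the fixation series the lower flank held 5869 interactions and the upper 12750, that is 6.54 and 14.2 per kb. Counted over listed fragments only, which cover 75.8% of the lower and 96.4% of the upper flank, these densities were 8.63 and 14.7 interactions per kb. No fragment listed in this series lacked an interaction, so the listed length itself depends on contact. The log2 ratio of upper to lower was 0.40 and -0.13 in the unfixed duplicates, which rest on 25 against 33 and 24 against 22 interactions and did not point the same way. From 0.5% to 2% it lay between 1.24 and 1.40 in the 6 libraries, and from 3% to 5% between 0.73 and 0.96 in the 6 libraries, with no overlap. Its mean over the 7 concentrations was 0.94, above 0 at 7 of 7 (exact sign-flip permutation test, two-sided, p = 0.0156, which is the smallest this design can give; adjusted over 20 tests 0.0313).

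In the low-input series the log2 ratio ranged from 0.66 to 2.31 (median 1.28) and was above 0 in 18 of 18 libraries. Its mean was 1.31 (sign-flip permutation test with 100000 resamples, p = 1e-05, the smallest that number can give). The highest and lowest libraries both had 50 ng of input. The highest, an LI-Capture-C library, held 19 interactions in the lower flank against 94 in the upper.

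Across all 7 concentrations the slope of the ratio on formaldehyde was -0.00072 log2 units per percent (exact permutation p = 0.997). Without the unfixed libraries it fell by 0.14 per percent (exact permutation p = 0.00972). Within 0.5% to 2% the slope was 0.03 and within 3% to 5% -0.09, with exact permutation p = 0.333 in each. The fall thus lay mainly between the sets, where concentration and depth cannot be told apart. On the chromosome 14 scale, the upper flank held 7.58% ± 0.326 at 0.5% and 3.72% ± 0.313 at 5% (SD, n = 2), and the lower flank 3.11% ± 0.264 and 2.21% ± 0.246.

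The decay with distance differed between the flanks. The decay exponent is the coefficient of log distance in a Poisson regression of window counts, so a value of -1 means that contact is inversely proportional to distance. In the 12 fixed libraries it ran from -2.36 to -1.74 in the lower flank and from -0.87 to -0.58 in the upper flank, with no overlap. The unfixed duplicates had -0.92 and 0.01 in the lower flank and 0.03 and 0.03 in the upper flank, on 22 to 33 interactions each. The exponent of the upper flank exceeded that of the lower by 1.05 on average over 7 concentrations (higher at 7 of 7; exact sign-flip permutation p = 0.0156; adjusted over 20 tests 0.0313). In the low-input series the difference was 1.29, higher in 18 of 18 libraries (sign-flip permutation p = 1e-05). A straight line on the log scale describes the upper flank poorly, since its contacts rose again at several distances described next.

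The slope of the exponent over both flanks was -0.13 per percent of formaldehyde, which did not pass (exact permutation p = 0.0611). Leaving out the 0.5% libraries made this -0.16 (exact permutation p = 0.0167). From 0.5% to 5% it was -0.04 (exact permutation p = 0.0986), with library values between -1.30 and -0.91.

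Contact was then counted in 45 windows of 20 kb per flank (the innermost starts at 103 kb below and 102 kb above). The lower flank was high next to its inner edge and dropped within a single window. In the 12 fixed libraries the windows at 103 to 120 kb, 120 to 140 kb and 140 to 160 kb held 1251, 847 and 610 interactions, and the window at 160 to 180 kb held 169. Those 3 windows, which are 6.67% of the lower flank's windows, held 36.0% to 56.1% (median 46.3%) of its interactions in the fixed libraries and 33.3% to 71.0% (median 47.3%) in the low-input libraries. The drop stood in the low-input series at the same place, with 288, 214 and 154 interactions followed by 32. Beyond 180 kb the lower flank declined unevenly, from 236 interactions at 180 to 200 kb to 17 at 980 to 1000 kb.

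The upper flank began lower, with 635, 617 and 475 interactions in the windows from 102 to 160 kb. It then rose to 961 at 200 to 220 kb and 1152 at 220 to 240 kb and fell back to 315 at 240 to 260 kb. Further rises stood at 580 to 620 kb (349 and 312, from 159 in the window before) and at 940 to 980 kb (512 and 614, from 257 in the window before). The low-input series showed the same rises, with 266 and 268 interactions at 200 to 240 kb, 95 and 75 at 580 to 620 kb, and 160 and 188 at 940 to 980 kb.

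**Figure D2:**
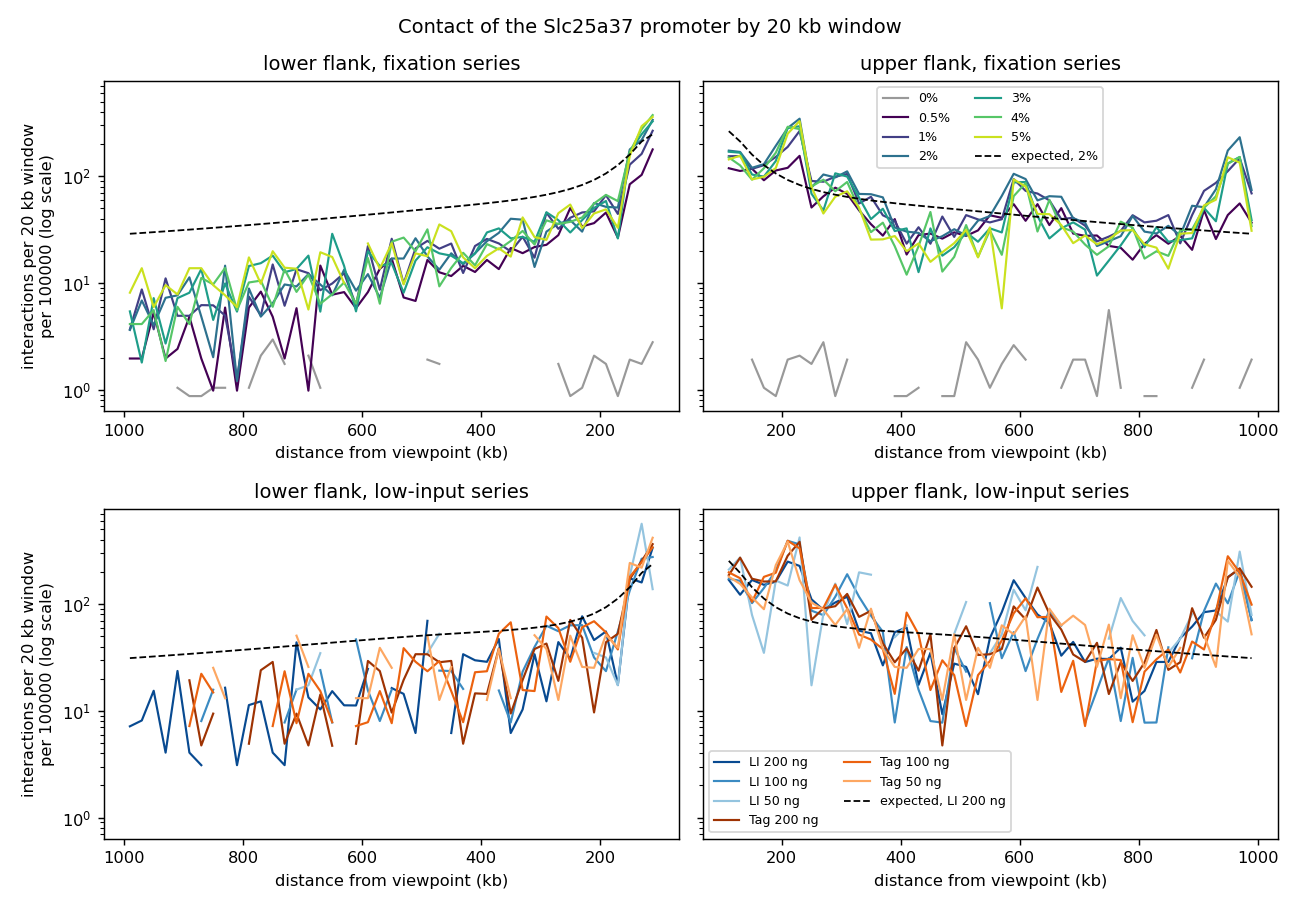
Interactions per 20 kb window per 100000 unique interactions (log scale) against distance from the viewpoint in kb, for the lower flank (left, distance running towards the viewpoint) and the upper flank (right), in the fixation series (top, mean of 2 duplicates per concentration) and the low-input series (bottom, mean of 3 libraries). Dashed lines give the expected count and windows with 0 interactions are left blank. The lower flank drops after 160 kb and the upper flank rises at 200 to 240 kb, 580 to 620 kb and 940 to 980 kb, in fixed libraries of both series.

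At matched distance, the order of the flanks turned at 160 kb. Within 160 kb the lower flank held 2708 interactions and the upper 1727 in the fixed libraries, with the lower flank higher in 11 of 12. From 160 to 400 kb the lower held 1747 and the upper 5377, from 400 to 700 kb 913 and 2548, and from 700 kb to 1 Mb 452 and 3043, with the upper flank higher in 12 of 12 libraries in each of these ranges. The low-input series gave 656 and 446 within 160 kb, with the lower flank higher in 15 of 18, and the upper flank was higher in 18 of 18 in the ranges beyond. These ranges were chosen after the profile was seen, so no test is given. By single windows, the upper flank was higher at 42 of 45 distances in the fixed libraries and at 38 of 45 in the low-input libraries, and the 3 innermost distances were the exceptions in both series, with 3 more exceptions and 1 tie beyond 160 kb in the low-input series.

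**Figure D3:**
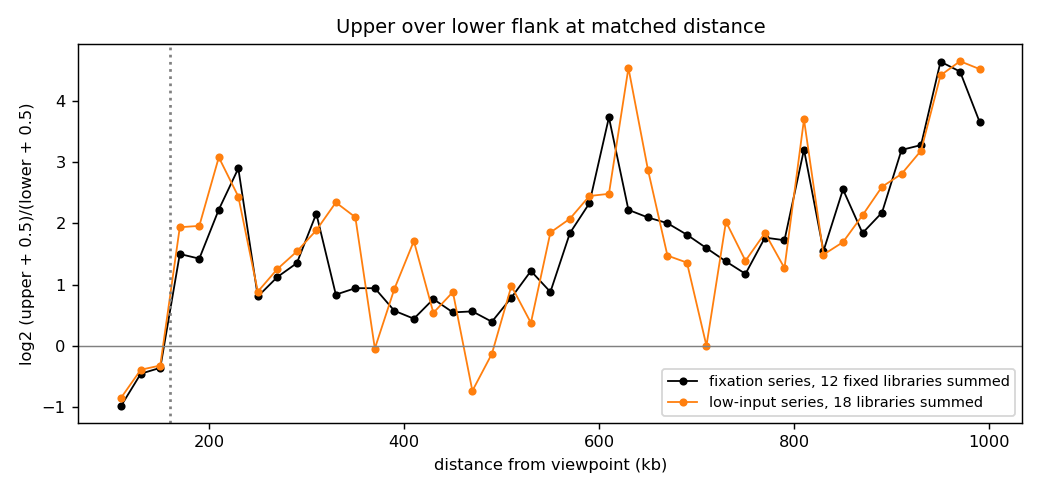
Log2 ratio of upper to lower interactions (0.5 added to each) at each of 45 matched distances, against distance from the viewpoint in kb. Black points sum the 12 fixed libraries of the fixation series and orange points the 18 low-input libraries. The dotted line is at 160 kb, below which the ratio is under 0 in both series.

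Each window was compared with the number expected at its distance, from a smooth curve fitted per library to all windows of chromosome 14 beyond 100 kb, the same on both sides. The test was edgeR's quasi-likelihood test on the sums of the duplicates of each concentration, with adjustment over all tested windows of the chromosome. Of the 90 flank windows 66 passed the filter of a mean count of at least 10 (21 lower, 45 upper), and 42 of them were called, 16 above and 26 below expectation. The background was 88.4% called over all 337 tested windows of chromosome 14 (80.7% above and 7.72% below). That background is set by the filter, since a window far from the viewpoint passed only if it was high. With no filter, 64 of 90 flank windows were called (16 above, 48 below) against a background of 46.6% over 5562 windows (12.7% above and 33.9% below). The share of flank windows above expectation was then 17.8% and that below 53.3%.

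The calls were split by flank. In the lower flank 1 window was above expectation and 18 were below, with a median log2 observed over expected of -0.84 over the 21 tested. In the upper flank 15 windows were above and 8 below, with a median of 0.05 over 45. The 24 lower windows that were not tested held too few interactions and are not described by these medians.

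The upper window with the highest ratio lies at 960 to 980 kb (70863000 to 70883000). It held 21 to 122 interactions per fixed library (median 40.5), or 51.2 to 267 per 100000 (median 150), and 0 and 1 in the unfixed duplicates. It stood 2.69 to 9.20 times above expectation (median 5.77), in 12 of 12 fixed libraries (mean log2 2.43, adjusted p = 3.08e-11). The low-input series did not enter its choice, and there it held 2 to 27 interactions (median 9.5) and was above expectation in 18 of 18 libraries (log2 2.65, adjusted p = 6.97e-54 among 26 windows with a mean count of at least 5). So far from the viewpoint, a low-input window passed that filter only if it was high, and this holds for the window described next too. Of the tested low-input windows outside the flanks, 11 of 11 were called above expectation.

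Its neighbour at 940 to 960 kb held 9 to 109 interactions per fixed library (median 36) and 0 in both unfixed duplicates. It was 1.81 to 6.04 times above expectation in 12 of 12 fixed libraries (log2 2.18, adjusted p = 5.42e-10). In the low-input libraries it held 0 to 22 (median 9.5) and was above expectation in 17 of 18 (log2 2.39, adjusted p = 9.45e-45). The contact thus formed a pair of adjacent windows near the outer edge of the flank, and its windows of 900 to 940 kb and 980 to 1000 kb were also called above expectation, at log2 0.99 to 1.14.

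The window at 220 to 240 kb (70123000 to 70143000) held 48 to 230 interactions per fixed library (median 80), the second-highest total of all 90 after the innermost lower window, and 0 and 2 in the unfixed duplicates. It stood 2.37 to 5.26 times above expectation in 12 of 12 (log2 1.90, adjusted p = 1.87e-11). The window at 200 to 220 kb held 35 to 200 (median 67.5) and stood 1.65 to 3.69 times above (log2 1.5, adjusted p = 3.93e-10). They were above expectation in 18 and 17 of 18 low-input libraries (log2 1.80 and 1.65, adjusted p = 1.46e-30 and 1.21e-26). The low-input filter favours high windows at these distances too. These 4 upper windows, 8.89% of the flank, held 15.8% to 31.5% (median 27.6%) of its interactions in fixed libraries and 18.1% to 34.5% (median 28.0%) in low-input libraries.

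The rise at 580 to 620 kb was named after its values were seen. Its windows held 9 to 53 and 13 to 55 interactions per fixed library, and stood above expectation in 12 of 12 (log2 1.23 and 1.10, adjusted p = 6.23e-08 and 7.37e-07). Of the 18 low-input libraries, 13 and 14 were above expectation. The lowest tested upper windows were those between the rises, at 400 to 420 kb (2 to 18 interactions, log2 -0.94, adjusted p = 0.000182) and 420 to 440 kb (1 to 17, log2 -0.75, adjusted p = 0.00212). In the low-input libraries the former held 0 to 9 interactions (median 0.848 times expectation, above it in 7 of 18). The latter held 0 to 4 there (median 0.448 times expectation, above it in 2 of 18).

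In the lower flank the only window called above expectation was the innermost, at 103 to 120 kb (69783000 to 69800000). It held 49 to 245 interactions per fixed library (median 98.5) and was 1.25 to 1.58 times above expectation in 12 of 12 (log2 0.48, adjusted p = 1.08e-05). It was above in 13 of 18 low-input libraries (log2 0.31, adjusted p = 0.0258). The windows at 120 to 140 kb and 140 to 160 kb were at 0.16 and 0.05 (adjusted p = 0.160 and 0.680), and the window with the fourth-highest ratio among the tested lower windows, at 240 to 260 kb, was below expectation (log2 -0.58, adjusted p = 0.0114).

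The window just outside the drop, at 160 to 180 kb (69723000 to 69743000), had the lowest ratio of the tested windows in either flank. It held 3 to 30 interactions per fixed library (median 11), 0.138 to 0.533 times the expected number, below expectation in 12 of 12 (log2 -1.48, adjusted p = 1.85e-06). It held 0 to 6 (median 1.5) in the low-input libraries and was below in 18 of 18. The other lowest window, at 300 to 320 kb, held 1 to 13 interactions per fixed library (log2 -1.35, adjusted p = 8.17e-06).

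**Figure D4:**
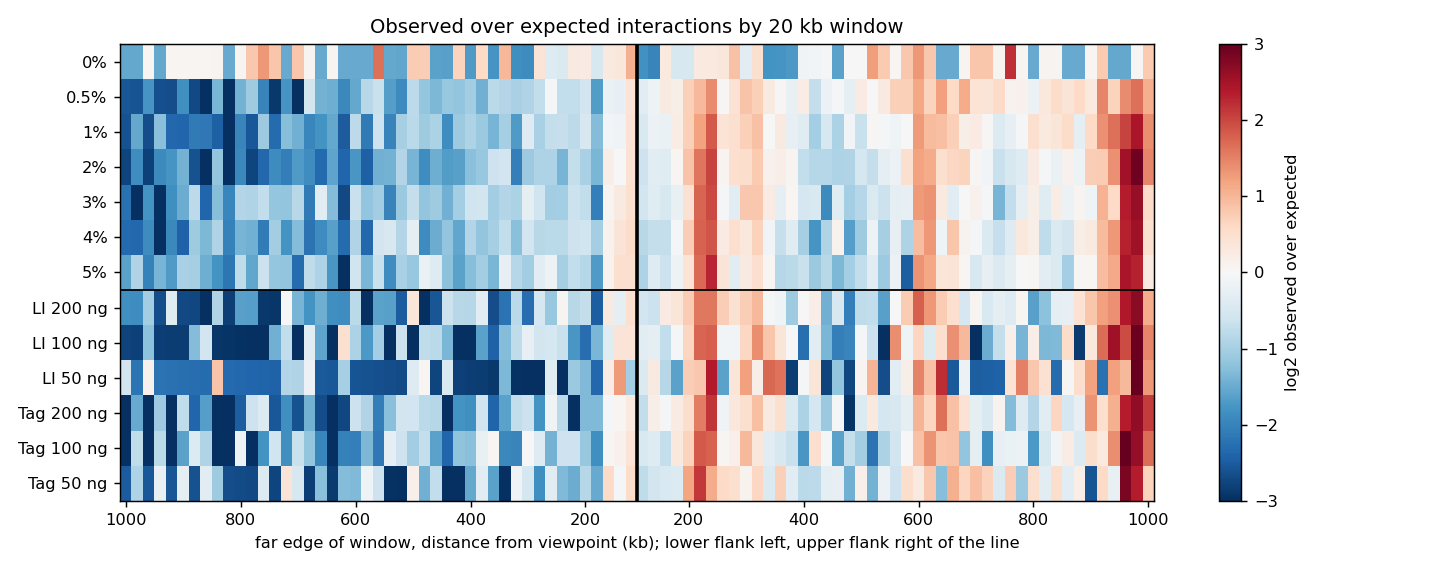
Log2 observed over expected interactions (0.5 added to each) for 90 windows of 20 kb (columns; the axis gives the far edge's distance from the viewpoint in kb, the lower flank left and the upper flank right of the vertical line) in 7 formaldehyde concentrations and 6 low-input groups (rows). Red is above and blue below expectation. The red columns at 200 to 240 kb and 940 to 980 kb recur in every fixed row. The unfixed row rests on libraries with 58 and 46 flank interactions, too few to judge whether it has such columns.

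Among the 6 fixed concentrations, the profiles over the 90 windows had Pearson r of 0.882 to 0.978 (median 0.952) between mean levels. The unfixed profile had r of 0.185 to 0.213 with these, but it rests on 58 and 46 interactions over the 90 windows. That is too few to judge whether its pattern differs. The 6 low-input groups had r of 0.749 to 0.958 with the profile at 2%, and 0.570 to 0.921 among themselves, with the 50 ng groups at the lower end. Windows of a profile share a library and the decay with distance, so these values are descriptions. Single libraries of a fixed concentration agreed at r of 0.882 to 0.966 over windows and 0.312 to 0.437 over fragments, whereas the unfixed duplicates had 0.111 and -0.02.

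By single fragments the flanks were sparse. Of the fixation fragments 21.5% held a single interaction over all 14 libraries, 33.6% in the lower and 13.0% in the upper flank, and 531 held 10 or more. The lower fragment with the most interactions, 69799185 to 69800499 (1315 bp), lies at the inner edge and held 119, or 4 to 31 per fixed library. The next, 69798049 to 69798747, held 57. In the upper flank the leading fragments, 70131734 to 70132708 and 70133646 to 70135113, held 95 and 61 and both lie in the window at 220 to 240 kb. Over the low-input libraries they held 13 and 6 interactions, found in 7 and 5 of 18 libraries.

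The straight-line trend of each window with formaldehyde over all 7 concentrations was called in 0 of 66 flank windows, against a background of 0% over 337 windows of chromosome 14 (edgeR, shares of all interactions; 0 at an unadjusted p under 0.05). A count of 0 in this test does not show that the windows were unchanged. The upper window at 220 to 240 kb held 0 and 2 interactions in the unfixed libraries, 59 and 72 at 0.5% and 132 and 230 at 2%. DESeq2 called 2 flank windows, against a background of 0.89%, and edgeR with TMM factors 2, against 2.37%. On the chromosome 14 scale edgeR called 4 flank windows, all in the upper flank and all falling with formaldehyde, against a background of 1.48%.

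Without the unfixed libraries and on the chromosome 14 scale, a setting chosen after seeing the data, 36 of 68 tested flank windows fell with formaldehyde and 0 rose, against a background of 23% over 400 windows. Of these, 33 lay in the upper flank (of 45 tested) and 3 in the lower (of 23). All 92 windows called over the chromosome fell. The range spans the 2 sets of libraries that differ in depth. On this scale, more contact within about 100 kb of the promoter lowers the share left to all tested windows. That near share was higher at 5% than at 0.5%, and its part in these calls was not tested. The background was not matched to the flanks by count. Relative to each library's own decay, 4 of 68 were called, 3 higher and 1 lower, against a background of 2.75% (2.5% higher and 0.25% lower). The windows at 200 to 220 kb and 220 to 240 kb above the promoter rose by 0.16 and 0.13 log2 units per percent (adjusted p = 0.0323 and 0.0460), and that at 120 to 140 kb below it by 0.17 (adjusted p = 0.00797). The upper window at 560 to 580 kb fell by 0.50 (adjusted p = 0.0361). At 0.5% the windows at 200 to 220 kb and 220 to 240 kb held on average 1.92 and 2.83 times the expected number, and at 2% 3.07 and 4.22 times. They held 3.34 and 3.93 times at 3%, 3.41 and 3.64 times at 4%, and 3.34 and 4.90 times at 5%, so the rise was not steady.

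In the low-input series, the difference between protocols in the share of the flanks did not pass the test. LI-Capture-C gave 5142 ± 115 per 100000 at 200 ng, 4982 ± 393 at 100 ng and 5235 ± 502 at 50 ng (SD, n = 3), and Tag-Capture-C gave 5644 ± 335, 5530 ± 414 and 5090 ± 430. At 200 ng every Tag-Capture-C library (5416 to 6029) stood above every LI-Capture-C library (5061 to 5273), and at the smaller inputs the protocols overlapped. The mean log2 difference of Tag-Capture-C over LI-Capture-C was 0.08 with labels exchanged within input (exact permutation p = 0.134). At 200 ng alone it was 0.13 (exact permutation p = 0.1, the smallest that 3 against 3 allows; 0.4 adjusted over 12 comparisons). As a share of chromosome 14 interactions the difference was 0.02 (exact permutation p = 0.702).

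Neither slope on input passed. The slope of log2 share on log2 input was -0.01 for LI-Capture-C (exact permutation p = 0.807) and 0.08 for Tag-Capture-C (exact permutation p = 0.116). The spread between libraries was wider at the smallest input. The log2 ratio of upper to lower flank was 1.28 ± 0.0111 for LI-Capture-C at 200 ng and 1.54 ± 0.712 at 50 ng (SD, n = 3), and for Tag-Capture-C 1.37 ± 0.0939 and 1.12 ± 0.515. The protocols differed by -0.19 in this ratio (exact permutation p = 0.308) and by -0.03 in the decay exponent (exact permutation p = 0.744). For the share, the slope on input was higher by 0.086 for Tag-Capture-C than for LI-Capture-C, which did not pass (exact permutation p = 0.160).

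**Figure D5:**
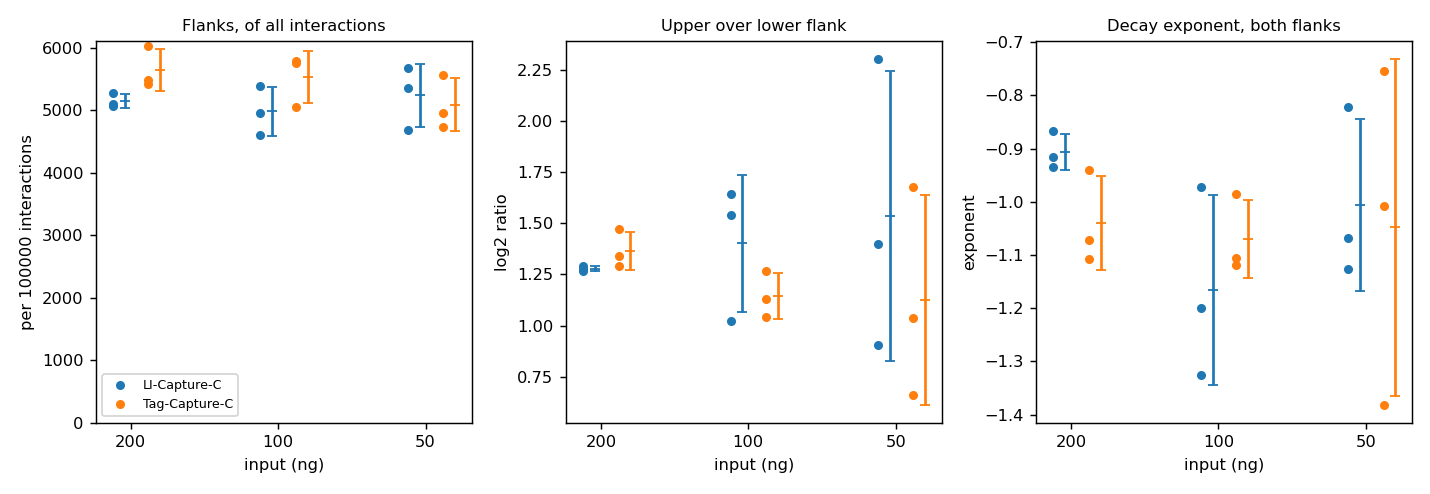
Flank interactions per 100000, log2 ratio of upper to lower flank and decay exponent over both flanks against input in ng, with LI-Capture-C in blue and orange for Tag-Capture-C. Points are libraries, and the bar beside them is the mean with SD (n = 3). At 200 ng the 3 Tag-Capture-C libraries lie above the 3 LI-Capture-C libraries in share (5416 to 6029 against 5061 to 5273), and the spread of the ratio is widest at 50 ng.

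Window by window, 5 flank windows reached a mean count of 10 in the low-input libraries, of which 4 were called above expectation (background 80%, since these 5 were all the tested windows). With a mean count of at least 5, 10 of 15 flank windows were called, 9 above and 1 below, against a background of 80.8% over 26 windows (76.9% above and 3.85% below). Between protocols 0 of 5 windows were called (0 at an unadjusted p under 0.05; DESeq2 0), and 0 of 15 with a mean count of at least 5, against a background of 0% in both. Windows of 40 kb gave 7 of 8 flank windows called against the decay (background 90.9% over 11 windows), and with no filter 57 of 90 were called (background 37.6% over 3294 windows).

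The same range around the centre of each globin locus, the 20 kb span with the most interactions, was measured in the same libraries. For β-globin this centre (111014000 in the fixation and 111012000 in the low-input series) lies off the promoters. The unlisted stretches there are 110961283 to 110963273 and 110975292 to 110977138. The Slc25a37 flanks held a smaller share than the α-globin flanks, by -0.32 log2 units in the fixation series (lower at 7 of 7 concentrations; exact sign-flip permutation p = 0.0156; adjusted over 20 tests 0.0313) and by -0.17 in the low-input series (lower in 16 of 18 libraries; permutation p = 0.00012). The unfixed duplicates, which are among the 7 concentrations, held 102 and 96.3 per 100000 at Slc25a37 and 101 and 126 at α-globin. They thus did not point the same way. Against the β-globin flanks the difference in share was 0.06 in the fixation series (exact permutation p = 0.438) and 0.02 in the low-input series (permutation p = 0.475). Counted from 200 kb outwards, the Slc25a37 flanks held more than the β-globin flanks, by 0.21 (exact permutation p = 0.0313) and 0.33 (permutation p = 1e-05).

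Contact over the Slc25a37 flanks fell less steeply than around β-globin, with an exponent higher by 0.19 in the fixation series (7 of 7; exact permutation p = 0.0156) and by 0.44 in the low-input series (18 of 18; permutation p = 1e-05). From 200 kb outwards the former was 0.14 (exact permutation p = 0.219). The 7 concentrations include the unfixed one, with 58 and 46 flank interactions at Slc25a37. Its duplicates had exponents of -0.41 and 0.02 there, -0.11 and -0.32 at β-globin and -0.22 and -0.13 at α-globin. Slc25a37 was thus lower in replicate 1 and higher in replicate 2 against either globin locus. Compared with α-globin the exponent differed by -0.19 and -0.13 (lower at 7 of 7, exact permutation p = 0.0156; lower in 15 of 18, permutation p = 0.00603). From 200 kb outwards this was -0.04 (exact permutation p = 0.469) and 0.14 (permutation p = 0.110), and with the globin centre placed between the unlisted stretches at the promoters -0.12 (exact permutation p = 0.0938) and -0.04 (permutation p = 0.301), so that it did not hold. In the low-input libraries the α-globin flanks leaned the other way, with a log2 ratio of upper to lower of -1.66 to -1.04, against 0.66 to 2.31 at Slc25a37. The β-globin ratio was -1.68 to -0.38, measured from the centre off the promoters. From that centre the lower β-globin flank lies nearer to the promoters than the upper, and the ratio was not recalculated at the other centre. Upper and lower refer to coordinates and not to the direction of a gene.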

How the data were processed

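The deposited values used here are counts of unique interactions per DpnII restriction fragment and library, made by the authors with their Capture-C pipeline and not normalized. The submitters' processing notes name Trim Galore, Bowtie and mm9. Duplicates had been filtered by read ends, and more strictly for low input, where ends 1 or 2 positions apart counted as duplicates, which lowers the counts. The libraries of the whole low-input procedure hold only α-globin and were not used.

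Fragments were summed by midpoint in 90 windows of 20 kb. Expected counts came from a natural spline of log distance (Poisson regression, knots at 110, 200 and 500 kb and 2 and 10 Mb), fitted per library to chromosome 14 beyond the inner edges. Shares were scaled to 100000 interactions. Single values were tested with exact permutation or sign-flip tests over 7 concentration means, or over 18 libraries (100000 resamples for sign flips), with Benjamini-Hochberg adjustment over 20 tests. Windows were compared by edgeR 4.0.16 and its quasi-likelihood F-test (R 4.3.3; mean count of at least 10, adjusted p under 0.05), checked on simulated data, with DESeq2 1.42.0 as an alternative. Other steps used Python 3.11.15, NumPy 2.4.6, pandas 2.3.3, SciPy 1.17.1 and matplotlib 3.10.9. The globin loci were centred on the 20 kb span with the most interactions. Per flank, the 4 highest and 2 lowest tested windows by observed over expected in the fixation series and the 2 fragments with the most interactions were named. The members, windows and lists were chosen with earlier results of these data known. No sequences of the flanks are shown.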

Additional observations from a re-analysis of the deposited data

How the results depend on the processing

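Of 403 alternatives over 24 results, 365 kept their direction and side of the threshold (or, for counts of windows, lay within 1.5 times), and 21 turned the sign. Most of the alternatives left out a concentration or a library and did not change the processing. For the slopes on input, leaving out a library of the other protocol could not change the value. The log2 ratio of upper to lower flank and the exponent of the upper minus the lower flank kept their sign and call under all alternatives run in both series. Their size moved. The ratio ran from 0.87 to 1.60 in the fixation series and from 1.25 to 2.20 in the low-input series. The exponent difference ran from 0.42 to 1.14 and from 0.36 to 1.33 in these series.

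The slope of the share on formaldehyde was -199 as a share of cis, -1094 on that scale without the unfixed libraries (chosen after seeing the data), and -46.2 within 3% to 5% (542.6 to 805 when leaving out a fixed concentration). The slope of the log2 ratio of the flanks was 0.0939 for flanks from 200 kb, -0.14 without 0%, 0.48 within 0% to 2%, and -0.000623 to 0.0485 when leaving out a fixed concentration (0.0393 without 0.5%, 0.0246 without 1%, 0.00391 without 2%, 0.0109 without 4%). The slope of the exponent was 0.00777 within 3% to 5% and -0.173 to -0.122 when leaving out a fixed concentration (-0.163, past the threshold, without 0.5%). For flanks from 200 kb, the exponent of Tag-Capture-C minus LI-Capture-C was 0.0433, and the slope of the share on input for LI-Capture-C 0.0228. When leaving out a library, these ran from -0.0759 to 0.0290 and from -0.0422 to 0.0213. For flanks from 200 kb the exponent against α-globin was -0.0447 (fixation) and 0.14 (low-input), that against β-globin 0.14 in the fixation series, and the log2 share against β-globin 0.21 and 0.33. With the globin centre at the unlisted stretches around the promoters, a choice made after seeing the data because the β-globin centre lies off the promoters, the exponent against α-globin was -0.12 and -0.0403 and the log2 share against β-globin -0.0200 in the fixation series. As a share of cis, the log2 share against β-globin was -0.0752 in the low-input series. The causes were not tested.

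Of flank windows against the decay, 64 were called with no filter in the fixation series (33 to 45 when leaving out a fixed concentration), and 10, 57 and 7 in the low-input series with a mean count of at least 5, no filter, and windows of 40 kb (3 to 4 when leaving out a library), where 26, 3294 and 11 windows of chromosome 14 were tested and 21, 1239 and 10 called. For formaldehyde, 2 flank windows were called with TMM factors (8 of 337 over chromosome 14), 2 by DESeq2 (3 of 337), 4 as a share of chromosome 14, and, without 0%, 36 on that scale and 4 relative to the decay, both chosen after seeing the data. Leaving out a concentration or library gave 0 for formaldehyde and 0 for the protocols. With the replicate block, 0 flank windows were called for formaldehyde (0 without it, over 14 libraries) and 0 between protocols. Replicate numbers did not pair the libraries: 6 of 30 same-numbered pairs in the fixation and 10 of 45 in the low-input series correlated above 0.1. Windows of 10 kb could not be tested in the low-input series, where too few reached the filter. Depth limited the 50 ng libraries most.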
